A study of Mus musculus with 6 samples.

Results

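Neutrophils were picked out of mouse colon tumour immune cells by their transcripts, and 846 of 33862 cell barcodes that passed quality control met the rule. A barcode needed at least 200 genes and at most 10% mitochondrial UMIs (unique molecular identifiers, the counted RNA molecules). It also needed at least 10 UMIs of S100a8 plus S100a9, the subunits of the calcium-binding protein calprotectin, and at least 2 UMIs of Csf3r, Cxcr2 and Retnlg together. Csf3r is the G-CSF receptor, Cxcr2 the receptor for neutrophil chemokines, and Retnlg a secreted protein of mature neutrophils. The complement genes C1qa, C1qb and C1qc and the M-CSF receptor gene Csf1r had to be at 0 UMIs, as did the T cell receptor subunits Cd3d, Cd3e and Cd3g. The cells were thus chosen by the measured UMIs of these 12 genes, whose levels are a description.

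The cells came from colon tumours labelled SOX17KO, a knockout of the transcription factor gene Sox17, and from colon tumours labelled Control. The labels give no strain, age, tumour model, promoter or Cre, and no treatment. Per the design text, 5 mice gave the pooled tumours of a condition, and viable cells that carried CD45 and lacked EpCAM were sorted after digestion with collagenase and DNase. The design text does not say if each collection was pooled in that way. There were 6 libraries of 10x Genomics 3′ v3 chemistry in 3 collections, each with 1 SOX17KO and 1 Control library: a pair with no stated time, a pair at 1 week and a pair at 2 weeks. What the weeks are counted from is not given, and the collections cannot be told apart from anything else that differed between their days. With 1 library per genotype and collection there is no replicate within a collection, and intervals for 1 library cover counting error only. The pooled mice are not separate samples either, so p-values do not measure the spread between mice. They rest on the disagreement between pairs of libraries, which may be technical. In the gene tests they rest also on counting error and on a spread estimated over all genes together.

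Neutrophils are short-lived phagocytes made in the bone marrow. They load primary, secondary and gelatinase granules in that order while they mature, and leave the blood along gradients of CXCR2 ligands. In tumours they are known for interleukin-1 and chemokine production, for ageing programmes marked by Cxcr4, and for a state marked by Siglecf. Interferons induce in them the same antiviral and antigen presentation genes as in other cells.

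The libraries held 18281322 to 52150180 UMIs in 3163 to 7495 barcodes, of which 3013 to 7309 passed quality control. Neutrophils were shallow: their median UMI number was 1484.5 to 2190.5 per library, against 3104 to 6348 in the other barcodes of the same libraries. Their median mitochondrial share was 0.117% to 0.270%, against 1.96% to 2.93% in the other barcodes. Sox17 was too sparse to check the genotype labels in these cells, which were sorted to lack EpCAM: a library held 3 to 20 Sox17 UMIs in all. The SOX17KO and Control libraries held 20 and 11 at 1 week, 3 and 10 at 2 weeks, and 4 and 7 in the untimed pair. Any 2 libraries shared at most 13 barcodes, and no barcode of a neutrophil was shared.

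The marker genes outside the rule matched the label. Histidine decarboxylase Hdc, the lipolysis inhibitor G0s2, the decoy interleukin-1 receptor Il1r2, and the C-type lectin receptors Clec4d and Clec4e were all detected: in the 5 libraries with more than 5 neutrophils, Hdc had 2700 to 4091 CPM (UMIs per 1000000 UMIs of the summed neutrophils), G0s2 3799 to 10633 CPM and Il1r2 1817 to 3536 CPM. Ly6g, the antigen most used to sort mouse neutrophils, was near the detection limit, at 0 to 32.0 CPM. Of the primary granule genes, Mpo, Elane, Ctsg and Ms4a3 were at 0 in all 6 libraries, and so was Camp of the secondary granules. Other members of these lists were detected. In cells thinned to equal depth, the 5 primary granule genes summed to a mean of 0.03 UMIs in the untimed Control. The mean was 0.039 in the 1-week SOX17KO and 0.0087 in the 1-week Control library, and 0 elsewhere. The 11 secondary granule and immature genes had means of 0.62 to 1.06 in the libraries with more than 5 neutrophils. Of 8 tested against Csf1r-positive myeloid cells, 5 were called higher in neutrophils and 2 lower. Of all 8775 genes in that fit, 24.7% were called higher and 29.5% lower. At most 5 neutrophils of any library had 2 or more UMIs of the secondary granule genes Ltf, Camp and Ngp. Across the 5 libraries with more than 5 neutrophils, the most abundant transcripts included Cxcl2 (mean 19741 CPM), Il1b (19498 CPM), S100a9 (18660 CPM), Fth1 (16976 CPM) and S100a8 (15315 CPM). Cxcl2 is a CXCR2 ligand, Il1b encodes interleukin-1β, and Fth1 the heavy chain of ferritin.

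Transcripts of other cell types were present at low levels in many of the cells. Neutrophils with no UMI of any other-class list or of Cd74 numbered 142 of 324 in the SOX17KO and 40 of 116 in the Control library at 1 week, 57 of 121 and 45 of 76 at 2 weeks, and 3 of 5 and 108 of 204 in the untimed pair. The eosinophil genes Epx, Ear1, Ear6, Prg2 and Il5ra were at 0, and T cell, mast cell, epithelial and red cell lists were near 0 (at most 55.2 CPM for a list). Of 30 NK cell list UMIs in the 2-week SOX17KO library, 24 were in 1 cell. The monocyte and macrophage list of 10 genes summed to 206 to 711 CPM in the 5 larger groups of neutrophils, against 4249 to 6177 CPM in Csf1r-positive myeloid cells of the same libraries. Fibroblast UMIs were concentrated in single barcodes: 422 of 425 UMIs in 1 cell of the 2-week SOX17KO library, 471 of 791 in 1 cell of the 1-week SOX17KO library, and 280 of 443 in 1 cell of the 1-week Control library. The dendritic cell list, mainly MHC class II genes, gave 660 UMIs in the 1-week SOX17KO library, 219 of them in 1 cell. No doublet caller was run, and barcodes with 2 cells were not removed beyond the genes the rule sets to 0. Among all barcodes with at least 1 Cd3 UMI, a wider set than the Cd3-positive class, the share with 10 or more UMIs of S100a8 plus S100a9 was 0.0194% to 4.75%, highest in the 1-week libraries. Thresholds were passed narrowly by some cells: 41 neutrophils had 10 to 12 UMIs of S100a8 plus S100a9, and 52 barcodes that met everything else had 7 to 9. Receptor sums of exactly 2 were found in 125 neutrophils, and 105 further barcodes had exactly 1.

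The first comparison was the share of neutrophils among sorted cells, a property of pooled libraries and not of single mice. The genotypes differed in opposite directions between the collections. At 1 week, 324 of 7309 SOX17KO barcodes were neutrophils, 4.43% (exact Clopper-Pearson 95% interval 3.97% to 4.93%), against 116 of 5492 Control barcodes, 2.11% (1.75% to 2.53%). At 2 weeks the shares were 4.02% (3.34% to 4.78%) of SOX17KO barcodes, 121 of 3013, and 1.59% (1.25% to 1.98%) of Control barcodes, 76 of 4783. In the pair with no stated time, 5 of 6382 SOX17KO barcodes were neutrophils, 0.0783% (0.0254% to 0.183%), against 204 of 6883 Control barcodes, 2.96% (2.58% to 3.39%). In log2 odds, SOX17KO minus Control, the differences were 1.10 at 1 week, 1.37 at 2 weeks and -5.15 in the untimed pair. Their mean of -0.89 ± 3.69 (SD, n = 3 pairs) gave p = 1.0 when the signs of the pairs were flipped in every way, an exact permutation test, two-sided, that cannot reach below p = 0.25 here. Without the untimed pair the mean was 1.24. The plot of shares shows the reversal.

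**Figure D1:**
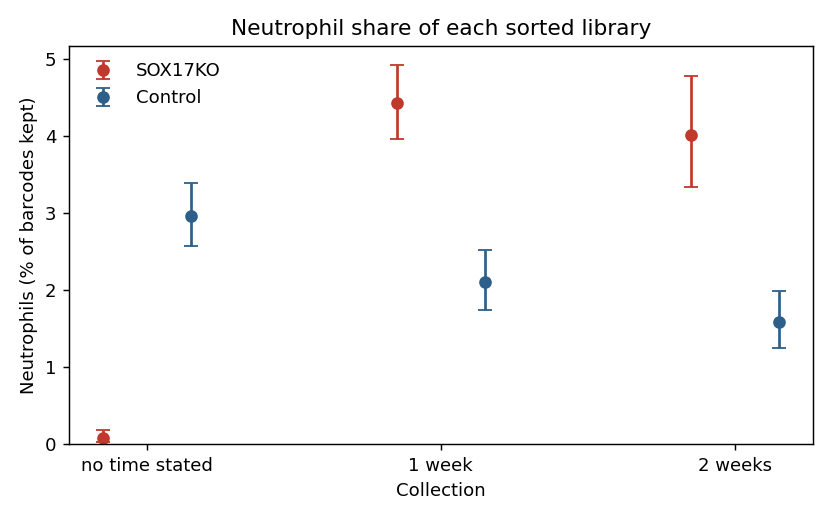
Neutrophils as a percentage of the barcodes that passed quality control, by collection, with SOX17KO left of Control. Points are single libraries and bars are exact 95% intervals for counting error. The SOX17KO points lie above Control at 1 week and 2 weeks (4.43% against 2.11%, 4.02% against 1.59%) and below it in the pair with no stated time (0.0783% against 2.96%).

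The makeup of the rest of each library differed between collections and genotypes too. Csf1r-positive myeloid cells were 3659 of 7309 SOX17KO barcodes and 2633 of 5492 Control barcodes at 1 week. They were 662 of 3013 and 738 of 4783 at 2 weeks, and 70 of 6382 and 208 of 6883 in the untimed pair. Of the same totals, Cd3-positive cells numbered 145 and 95 at 1 week, 790 and 2213 at 2 weeks, and 4808 and 4435 in the untimed pair. A share of sorted cells falls when another class rises, and the part of this in the differences was not tested. The demand for 0 UMIs of Csf1r and the C1q genes removed 289 barcodes with neutrophil genes from the 1-week SOX17KO library and 142 from the 1-week Control library, but 37 and 13 at 2 weeks and 2 and 56 in the untimed pair. Allowing 1 UMI of each set gave 5.50% of SOX17KO against 2.57% of Control barcodes at 1 week, 4.85% against 1.71% at 2 weeks and 0.110% against 3.28% in the untimed pair.

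The second comparison asked which neutrophil genes differed between SOX17KO and Control tumours. No gene passed the test. Interferon-inducible genes such as Isg15, Gbp2, Cxcl10 and Irf1 were among those with the lowest p that stood lower in SOX17KO neutrophils. UMIs were summed over the neutrophils of each library and tested with edgeR's quasi-likelihood test, with collection as a term. Only the 1-week and 2-week pairs entered, since the untimed SOX17KO library had 5 neutrophils, so that 1 residual degree of freedom was left. Of 3457 genes tested, 0 were called at a Benjamini-Hochberg adjusted p of 0.05 (0.0% of genes), and the lowest adjusted p was 0.9995. There were 120 genes at an unadjusted p under 0.05 (3.47%), and DESeq2 and limma-voom also called 0. What follows on this comparison gives levels and their agreement between the pairs, not calls.

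The type I interferon list had 26 genes, 24 of which passed the expression filter, and 23 of these stood lower in SOX17KO neutrophils, with a median log2 fold change of -0.48. Over all genes tested, the fitted log2 fold change was below 0 in 48.0% and the median was 0.02. In both collections at once, 17 of the 24 were lower, against 24.0% of all genes. Isg15, an antiviral ubiquitin-like modifier, had 960 CPM in SOX17KO and 1712 CPM in Control neutrophils at 1 week, and 419 CPM in SOX17KO and 831 CPM in Control neutrophils at 2 weeks. SOX17KO was the lower in both pairs, but the 1-week SOX17KO level was above the 2-week Control level. Its fitted log2 fold change was -0.95 ± 0.20 (SE, 2 pairs), the adjusted p being 0.9995. Rsad2, the antiviral enzyme viperin, had 602 CPM in SOX17KO against 1059 CPM in Control neutrophils at 1 week, and 680 against 863 CPM at 2 weeks. Transcripts of the monocyte and macrophage list in the same neutrophils stood lower in SOX17KO too, at 454 against 711 CPM at 1 week and 206 against 237 CPM at 2 weeks. Of its 4 tested genes 3 were below 0, with a median of -0.38, and their part in the interferon differences was not tested.

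Genes induced by interferon-γ had a list median of -0.64, with 11 of 13 tested members below 0 and 8 lower in both collections. Gbp2, a guanylate-binding protein that attacks pathogen vacuoles, had 2107 CPM in SOX17KO against 3184 CPM in Control neutrophils at 1 week, and 1610 against 2659 CPM at 2 weeks. Gbp2 was lower in SOX17KO in both pairs, as were 24.0% of all genes tested. The fitted log2 fold change was -0.70 ± 0.16 (SE). Gbp5, which promotes inflammasome assembly, had 1269 against 1558 CPM at 1 week and 728 against 1401 CPM at 2 weeks. The transcription factor gene Irf1 had 1287 CPM in SOX17KO against 1730 CPM in Control neutrophils at 1 week, and 1312 against 2271 CPM at 2 weeks. Cxcl10, an interferon-inducible chemokine for T cells, taken from the chemokine list, had 1910 against 2578 CPM at 1 week and 643 against 2247 CPM at 2 weeks. The Cxcl10 difference rested more on the later pair: its log2 ratio was -0.51 at 1 week and -1.79 at 2 weeks. Cxcl9, a related chemokine gene of the interferon-γ list, did not keep to this direction. It had 232 CPM in SOX17KO against 1059 CPM in Control neutrophils at 1 week, and 327 against 31.7 CPM at 2 weeks. Its UMIs were in 7.41% of SOX17KO and 5.17% of Control neutrophils at 1 week, and in 2.48% and 1.32% at 2 weeks.

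The promoters of Gbp2, Isg15, Cxcl10 and Irf1 are shown because they carry the elements through which interferons are known to act. The interferon-stimulated response element was searched as GAAANNGAAA and the gamma-activated site as TTCNNNGAA, on both strands, in the 250 bases before each start in the RefSeq promoter table of GRCm38.p6. Capitals mark the matches (in Isg15, 3 overlapping ones); all 4 stretches are 100 bases long and run 5′ to 3′ on the gene's strand.
Gbp2, chr3:142620563-142620662, plus strand: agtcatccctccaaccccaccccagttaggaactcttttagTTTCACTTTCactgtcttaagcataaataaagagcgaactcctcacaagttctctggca
Isg15, chr4:156200819-156200918, minus strand: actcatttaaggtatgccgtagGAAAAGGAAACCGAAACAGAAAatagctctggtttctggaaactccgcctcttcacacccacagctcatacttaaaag
Cxcl10, chr5:92349030-92349129, minus strand: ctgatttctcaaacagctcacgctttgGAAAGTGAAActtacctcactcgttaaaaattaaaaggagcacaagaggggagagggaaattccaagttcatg
Irf1, chr11:53769894-53769993, plus strand: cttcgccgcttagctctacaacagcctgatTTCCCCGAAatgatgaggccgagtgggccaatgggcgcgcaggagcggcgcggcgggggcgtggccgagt

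Counting a gene once if any of its promoters matched, the response element was found in 936 of 27025 genes (3.46%) and the gamma-activated site in 2197 (8.13%). Of the type I interferon list, 21 members matched the table, 11 had the response element and 2 the gamma-activated site. Of the interferon-γ list, 12 matched, 7 had the response element and 4 the gamma-activated site. Of the MHC class I list, 12 matched, 2 had the response element and 1 the gamma-activated site. A match is a run of letters, and no binding was measured.

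MHC class I genes followed the same direction, with 14 of 14 members below 0 and a median of -0.34, and 9 of 14 lower in both collections. The light chain gene B2m had 2268 CPM in SOX17KO against 3087 CPM in Control neutrophils at 1 week, and 2591 against 2667 CPM at 2 weeks. The peptide transporter gene Tap1 had 278 against 413 CPM and 294 against 380 CPM. H2-K1 had 893 against 1134 CPM and 915 against 1037 CPM. The class I difference was thus wider at 1 week, where the list median was -0.56, than at 2 weeks, where it was -0.16, and the difference between these medians was not tested.

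**Figure D2:**
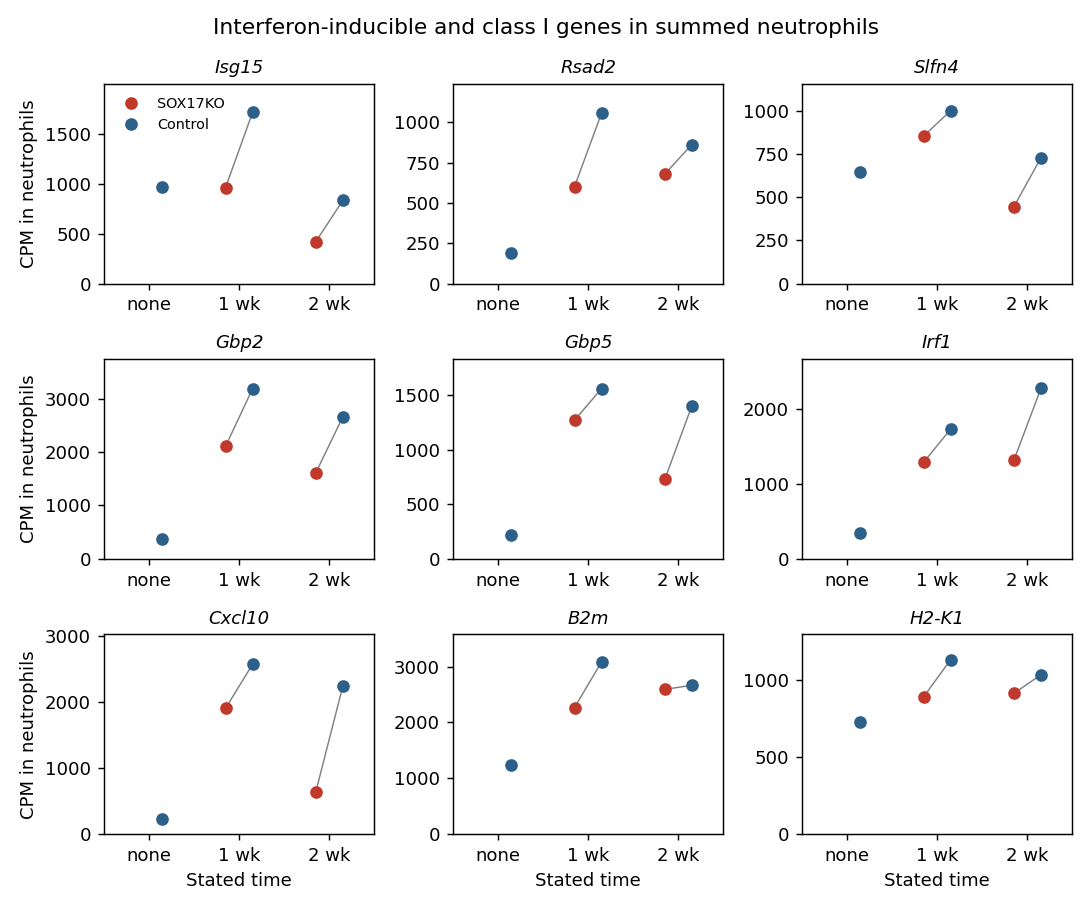
CPM of 9 interferon-inducible and class I genes in the summed neutrophils of each library, SOX17KO left of Control, with grey lines joining the pair of a collection and linear axes from 0. The untimed SOX17KO library is left out (5 neutrophils). All 9 genes are lower in SOX17KO at 1 week and at 2 weeks, and the untimed Control library is below all 4 other libraries for Gbp2 (377 CPM), Cxcl10 (238 CPM) and Irf1 (339 CPM).

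In untimed Control neutrophils some of these genes were lower still. Their Gbp2 level of 377 CPM, Cxcl10 level of 238 CPM and Irf1 level of 339 CPM lay below all 4 timed libraries of either genotype. Isg15, at 965 CPM there, did not. For these 3 genes the untimed Control library lay further in CPM from either timed Control library than SOX17KO and Control of a timed collection lay from each other.

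Shares of neutrophils with a UMI, after each cell was thinned to 1000 UMIs, ran the same way for Gbp2 and Isg15. Gbp2 was found in 51.0% of SOX17KO against 69.6% of Control neutrophils at 1 week, and in 44.0% against 58.7% at 2 weeks. Isg15 was found in 43.5% against 53.9% at 1 week, and in 22.4% against 44.4% at 2 weeks. The 95% counting intervals of SOX17KO and Control were apart for Gbp2 at 1 week (45.2% to 56.7% against 60.3% to 77.8%) and for Isg15 at 2 weeks (15.2% to 31.1% against 31.9% to 57.5%), and overlapped otherwise. Unthinned, Gbp2 was found in 59.6% against 74.1% and 47.1% against 67.1%, and Isg15 in 55.9% against 69.8% and 34.7% against 47.4%. In Cd3-positive cells thinned alike, Gbp2 was found in 17.4% of SOX17KO and 9.47% of Control cells at 1 week, and in 7.06% and 5.81% at 2 weeks. Isg15 was found there in 10.4% and 17.9% at 1 week, and in 2.18% and 1.83% at 2 weeks. Both genes were thus well above that level in neutrophils of all 4 libraries. The Cd3-positive cells were deeper before thinning, with medians of 4779 to 5366.5 UMIs.

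Myeloid cells with Csf1r from the same libraries did not show one common pattern. Isg15 in them was lower in SOX17KO too, at 412 against 739 CPM at 1 week and 125 against 214 CPM at 2 weeks. Gbp2 was close between genotypes, at 1478 against 1427 CPM at 1 week and 1086 against 1201 CPM at 2 weeks. Whether the genotype difference itself differed between the cell classes was not tested.

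The chemokine list had 8 of 9 tested members below 0, against 48.0% of all genes, with a median of -0.86 at 1 week and 0.04 at 2 weeks. In both pairs 3 of the 9 were lower, Cxcl2 among them, against 24.0% of all genes. Cxcl2 had 17891 CPM in SOX17KO against 24686 CPM in Control neutrophils at 1 week, and 16812 against 19800 CPM at 2 weeks. Ccl4, an inflammatory chemokine gene, had 1718 CPM in SOX17KO against 6477 CPM in Control neutrophils at 1 week, and 4087 against 3767 CPM at 2 weeks. Its relative Ccl3 had 1536 against 3633 CPM and 2382 against 1709 CPM, so that the order of the genotypes turned round. The inflammatory cytokine list had 9 of 9 tested members below 0, against 48.0% of all genes, with a median of -0.68 at 1 week and -0.09 at 2 weeks. Of its members, Tnf was lower in both pairs, with 1013 against 1569 CPM and 1066 against 1329 CPM. Il1b was close between genotypes, with 16545 against 17890 CPM at 1 week and 20539 against 20472 CPM at 2 weeks. Il1a, the gene of interleukin-1α, had 665 against 1016 CPM at 1 week and 489 against 483 CPM at 2 weeks. The checkpoint ligand gene Cd274, which encodes PD-L1, had 1554 against 2021 CPM and 2025 against 1820 CPM. For Il1b and Cd274 the sign of the difference was not the same in both pairs.

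The hypoxia and glycolysis list lay on different sides of 0 in the collections. Its median was 0.20 at 1 week and -0.64 at 2 weeks, over 18 tested members. Bnip3, a mitochondrial protein of the hypoxic response, had 266 CPM in SOX17KO against 144 CPM in Control neutrophils at 1 week, and 73.5 against 237 CPM at 2 weeks. From the list of the Siglecf tumour state, Hilpda, a lipid droplet protein, had 479 against 320 CPM and 154 against 348 CPM. Vegfa, the angiogenic growth factor, had 125 against 71.8 CPM and 84.5 against 206 CPM. For these 3 genes the 95% counting interval of the ratio left out 1 in each collection, and the fit over both gave log2 fold changes near 0, such as -0.24 ± 0.51 (SE) for Bnip3.

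**Figure D3:**
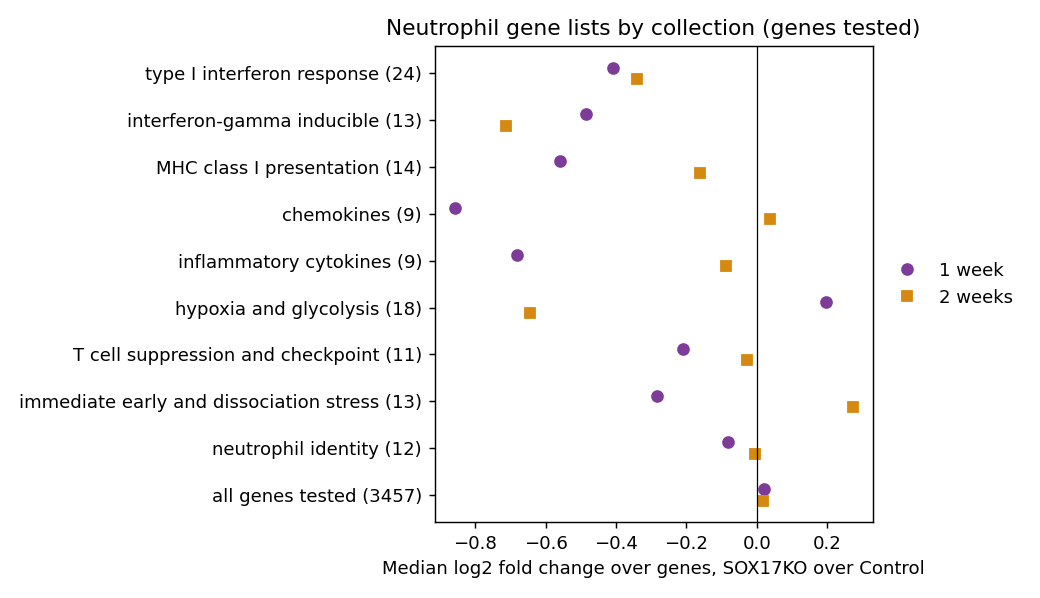
Median log2 fold change (SOX17KO over Control) of each gene list in neutrophils at 1 week (circles) and 2 weeks (squares), with the number of tested genes in brackets. Interferon and class I lists lie below 0 in both collections. So do the inflammatory cytokine (-0.68 and -0.09), T cell suppression (-0.21 and -0.03) and neutrophil identity (-0.08 and -0.006) lists. Hypoxia and chemokine lists have medians on both sides (0.20 and -0.64, -0.86 and 0.04), as does the immediate early list (-0.28 and 0.27). The median of all 3457 genes is 0.02 in both.

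Several other lists had medians closer to that of all genes. Neutrophil identity had a median of -0.02 over 12 members, NADPH oxidase -0.13 over 7, adhesion -0.10 over 9, survival and apoptosis -0.10 over 14, and T cell suppression and checkpoint -0.14 over 11. By the rule of lowest p with one direction in both pairs, the named genes that stood higher in SOX17KO, none past the test, were Lox, Postn, Wfdc21, Stat4, Rps29, Smim3, Rpl41, Pde3b, Cox7c and Zmiz1. Those that stood lower were Serpinb2, Isg15, Gbp2, Fth1, Cxcl10, Srgn, Saa3, Irf1, Pnp and Cdkn1a. Wfdc21, a secreted protein of mature neutrophils, had 410 CPM in SOX17KO against 187 CPM in Control neutrophils at 1 week, and 489 against 229 CPM at 2 weeks. Its fitted log2 fold change was 1.07 ± 0.29 (SE). Postn encodes a matrix protein of fibroblasts, and in the 2-week SOX17KO library 1 barcode held 422 of the 425 fibroblast list UMIs. Lox, a collagen crosslinking enzyme, had 0 UMIs in the 2-week Control library, which also held 0 fibroblast UMIs. At 1 week the fibroblast list was lower in SOX17KO, at 1056 against 1590 CPM. Lox was higher there, at 151 against 21.5 CPM, and so was Postn, at 105 against 32.3 CPM. The part of fibroblast RNA in the Lox and Postn values was not tested. Serpinb2, a protease inhibitor, had 7 UMIs in SOX17KO against 15 in Control neutrophils at 1 week, and 0 against 36 at 2 weeks.

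Leaving out cells with genes of other classes turned a few of these into calls. With cells holding a UMI of the T, B, NK, fibroblast, epithelial, mast cell or eosinophil lists left out, 7 of 2872 genes passed edgeR's test: Eprs, Rpl37 and Wfdc21 were higher in SOX17KO, and Serpinb2, Ccl4, Cxcl10 and Saa3 were lower. With cells holding any UMI of any other class or of Cd74 left out, a choice made after the data were seen, 4 of 1566 genes passed, all lower: Cxcl10, Isg15, Rnf213 and Rsad2. That fit kept 142 SOX17KO and 40 Control neutrophils at 1 week, and 57 and 45 at 2 weeks. Cxcl10 was then at a log2 fold change of -1.57 (adjusted p = 1.26e-06), and Isg15 at -1.09 (adjusted p = 0.0263). Cxcl10 was called in 3 alternatives and Isg15 in 1.

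The third comparison was time, 2 weeks against 1 week, with genotype as a term in the same 4 libraries. At 2 weeks neutrophils had more transcripts of Thbs1, Cxcr4, Entpd1, Plaur and Acod1, and fewer of the interferon-inducible Ifitm3 and Isg15 and of Ftl1, the ferritin light chain. edgeR called 55 of 3457 genes (1.59%), 16 higher (0.463%) and 39 lower (1.13%) at 2 weeks. The calls were sensitive: with RLE in place of TMM scaling 0 were called, though the lowest adjusted p was 0.0526 and all 55 kept their direction.

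Among those that rose, Cxcr4, the marrow-homing receptor of aged neutrophils, had 783 CPM in SOX17KO and 815 CPM in Control neutrophils at 2 weeks, against 332 and 255 CPM at 1 week. Its log2 fold change was 1.43 ± 0.25 (SE; adjusted p = 0.0278, edgeR). Entpd1 encodes CD39, an enzyme that starts the conversion of extracellular ATP to adenosine. It had 2540 and 2746 CPM at 2 weeks against 1556 and 1156 CPM at 1 week. Thbs1, the matrix glycoprotein thrombospondin 1, had 2459 and 3759 CPM against 1046 and 801 CPM. All 3 genes were higher at 2 weeks in both genotypes, as were 1082 of all 3457 genes tested.

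Acod1, the itaconate-producing enzyme, had 10262 CPM in SOX17KO and 11435 CPM in Control neutrophils at 2 weeks, against 6719 and 7306 CPM at 1 week. Its log2 fold change was 0.62 ± 0.12 (SE; adjusted p = 0.0398, edgeR). Plaur, the urokinase receptor, rose by 1.08 ± 0.19 and Adam8, a sheddase, by 1.58 ± 0.30 on the log2 scale. The immediate early genes Fos and Dusp1 rose by 1.25 ± 0.21 and 1.10 ± 0.16. These were the 2 members called of 13 in the list of immediate early and dissociation stress genes, which warm enzymatic digestion is known to induce. Of that list 10 were above 0, against 49.0% of all genes, with a median of 0.35. Il1b was not called, at 0.24 ± 0.11.

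Among those that fell, Ifitm3, which blocks viral entry, had 636 CPM in SOX17KO and 681 CPM in Control neutrophils at 2 weeks, against 1724 and 2373 CPM at 1 week. Its log2 fold change was -1.62 ± 0.20 (SE; adjusted p = 0.0124, edgeR). Isg15 fell by 1.13 ± 0.20. These were the 2 calls among 24 type I interferon genes, of which 23 were below 0 at 2 weeks, with a median of -0.82, against 51.0% of all genes below 0. The immunoproteasome subunit gene Psmb8 fell by 1.56 ± 0.31, the only call among 14 class I genes, whose median was -0.05. Interferon-γ genes had a median of -0.10 and no call. Hypoxia and glycolysis genes were below 0 in 15 of 18 members, with a median of -0.62 and 0 calls. Their median was -0.89 in the SOX17KO pair and -0.14 in the Control pair, and 11 of 18 were lower in both.

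**Figure D4:**
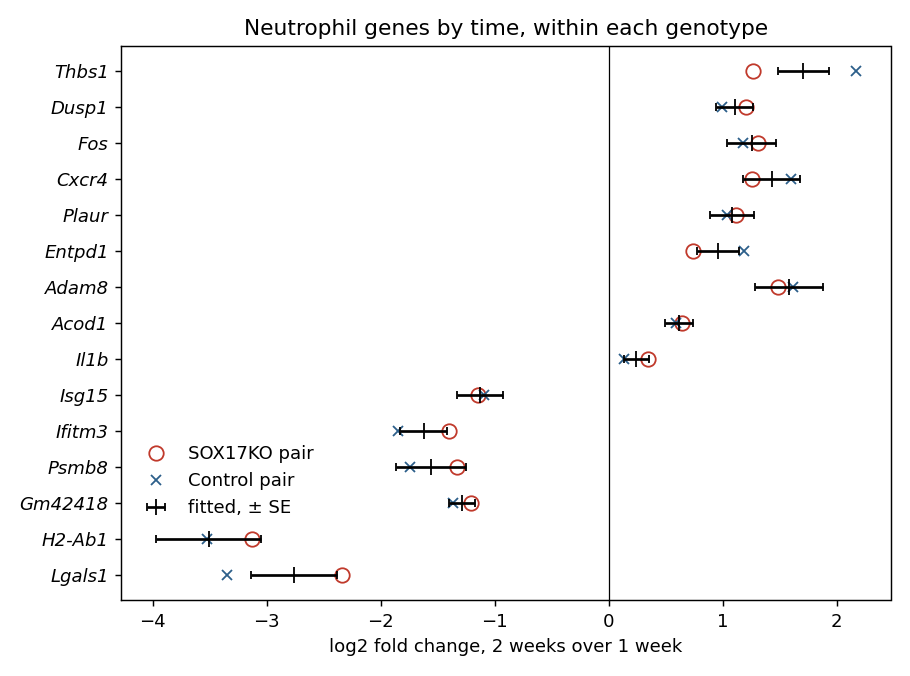
Log2 fold change of 15 neutrophil genes, 2 weeks over 1 week, within the SOX17KO pair (open circles) and the Control pair (crosses), with the fitted value and its SE (black). Both pairs lie on the same side of 0 for every gene shown. Il1b was not called; the other 14 genes passed the test.

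Several of the largest decreases were in genes known to be abundant in other cell types, and some in genes tied to RNA makeup. Which cells these transcripts came from was not tested. The MHC class II genes H2-Ab1, H2-Aa, H2-Eb1 and Cd74 fell by 3.51, 3.67, 2.99 and 2.31 on the log2 scale. H2-Ab1 had 8 and 1 UMIs in SOX17KO and Control neutrophils at 2 weeks, against 230 and 40 at 1 week. The dendritic cell list, which holds the first 3 of these, summed to 80.9 and 55.4 CPM at 2 weeks and to 881 and 499 CPM at 1 week. Lgals1, S100a4, S100a10, Crip1 and Vim, which are abundant in macrophages and fibroblasts, fell too. The macrophage list summed to 206 and 237 CPM at 2 weeks, against 454 and 711 CPM at 1 week. Csf1r-positive cells, a possible source of free RNA, were 662 and 738 at 2 weeks and 3659 and 2633 at 1 week, and their part in these calls was not tested.

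Gm42418 and AY036118, which overlap ribosomal RNA genes, fell by 1.29 ± 0.12 and 2.19 ± 0.28. Gm42418 made up 0.718% and 0.723% of neutrophil UMIs at 2 weeks, against 1.70% and 1.79% at 1 week and 4.39% in the untimed Control. Leaving out cells with any UMI of another class, as an alternative chosen after seeing the data, gave 86 calls, and of the 36 earlier calls it still tested, 35 kept their direction and 28 their call.

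Neutrophils were next set against the Csf1r-positive myeloid cells of the same 5 libraries, monocytes and macrophages by their gate. Genes of either gate were not tested. The test describes 2 kinds of cell that were chosen to differ, so its 4755 calls among 8775 genes (54.2%), 2165 higher (24.7%) and 2590 lower (29.5%) in neutrophils, are a backdrop. All 14 neutrophil identity genes were called higher, with a median log2 fold change of 4.39, and 9 of 10 monocyte and macrophage genes were called lower, with a median of -4.33. The chemokine receptor Ccr2 had 7.91 to 89.8 CPM in neutrophils and 891 to 1282 CPM in myeloid cells. Apoe, the lipid carrier of macrophages, had 26.6 to 120 CPM in neutrophils and 1458 to 2082 CPM in myeloid cells.

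Per UMI, neutrophils held more of most inflammatory cytokine transcripts, while other lists were mixed. Of 12 inflammatory cytokine genes 11 were called higher in them, with a list median of 2.58. Cxcl2 had 16812 to 24686 CPM in neutrophils against 510 to 1501 CPM in myeloid cells, a log2 fold change of 4.75 ± 0.24 (SE). Tnf had 316 to 1569 CPM against 18.5 to 138 CPM. Acod1 had 4026 to 11435 CPM against 125 to 325 CPM, and Entpd1 had 1156 to 2746 CPM against 257 to 402 CPM. These 4 genes were higher in neutrophils in every library, as were 1840 of all 8775 genes tested. Of 10 chemokine genes, Cxcl2 among them, 6 were called higher in neutrophils and 3 lower. Of 13 tested T cell suppression and checkpoint genes, which include Entpd1 and Cd274, 5 were called higher and 4 lower, with a median of -0.19. Over all genes tested 24.7% were called higher and 29.5% lower, and 4 of 13 lower lies near that share. Arg1 was one of the lower ones, at -4.57.

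Cd274 had 797 to 2025 CPM in neutrophils against 149 to 763 CPM in myeloid cells. The type I interferon list was higher in neutrophils in 21 of 26 genes, against 42.8% of all genes, 15 of them called, with a median of 1.25. Gbp2 was higher in neutrophils by 1.33 ± 0.19 and Isg15 by 1.91 ± 0.17 on the log2 scale. Cxcl9, a related chemokine, was not called, at -0.95 ± 0.50. Of 14 MHC class I genes 5 were called higher and 3 lower, against 24.7% and 29.5% of all genes, with a median of 0.05. Fibroblast genes were called higher in 5 of 5 members, but 0 were higher in every library. Their median was -1.70 in the untimed Control and -5.65 in the 2-week Control library. It was 2.24 and 5.09 in the 1-week SOX17KO and Control libraries and 5.57 in the 2-week SOX17KO library. The part of the single barcodes described above was not tested.

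**Figure D5:**
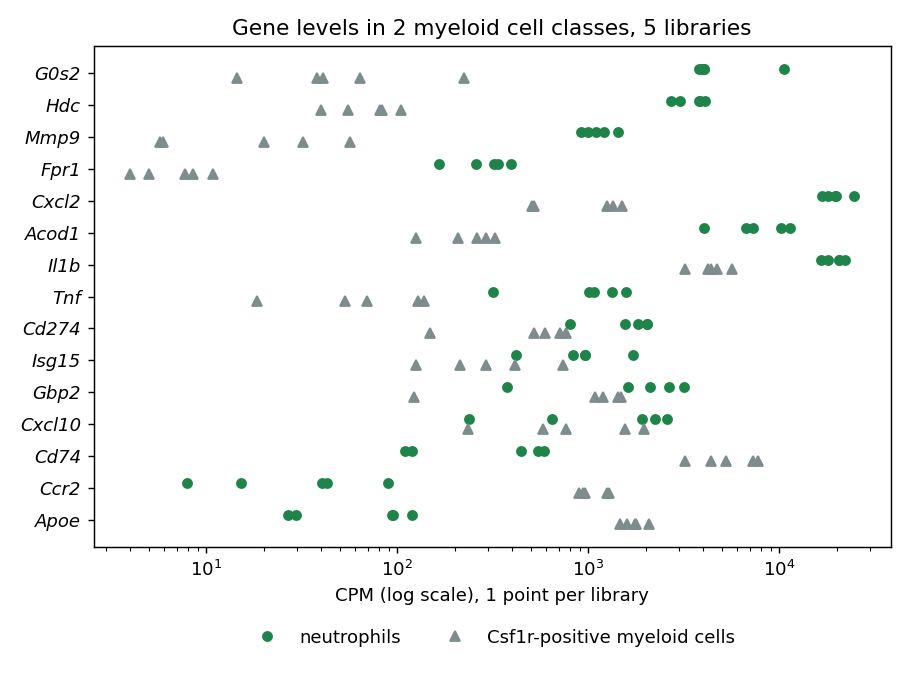
CPM on a log axis of 15 genes in neutrophils (circles) and Csf1r-positive myeloid cells (triangles), with 1 point per library and cell class in 5 libraries. Neutrophil points lie above myeloid points without overlap for G0s2, Hdc, Mmp9, Fpr1, Cxcl2, Acod1, Il1b, Tnf and Cd274, and below them for Cd74, Ccr2 and Apoe. The interferon genes Isg15, Gbp2 and Cxcl10 overlap. Of all 8775 genes tested, 1840 were higher in neutrophils in every library and 3030 lower.

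Siglecf, the sialic acid receptor that marks a tumour state of neutrophils, was found most often in the untimed Control library. After thinning to 1000 UMIs, it was found in 9.50% of untimed Control neutrophils (19 of 200; 95% interval 5.82% to 14.4%). At 1 week it was in 1.95% of SOX17KO (0.718% to 4.19%) and 0.870% of Control neutrophils (0.0220% to 4.75%). At 2 weeks it was in 2.59% of SOX17KO (0.537% to 7.37%) and 3.17% of Control neutrophils (0.387% to 11.0%). The untimed Control interval was apart from both 1-week intervals and overlapped both 2-week ones. Cd3-positive cells thinned alike had at most 0.137%. Unthinned, these shares were 17.6% in the untimed Control, 5.25% and 2.59% at 1 week, and 4.13% and 5.26% at 2 weeks. Unthinned Cd3-positive cells had at most 0.813%. None of the 5 untimed SOX17KO neutrophils had a Siglecf UMI, too few cells to set a share.

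Neutrophils with a Siglecf UMI were compared with those without in the libraries that held at least 10 of each: 36 against 168 in the untimed Control and 17 against 307 in the 1-week SOX17KO library. Cells with Siglecf had more transcripts of the fatty acid receptor gene Gpr84 and the cyclooxygenase gene Ptgs1, and fewer of interferon-inducible genes. edgeR called 17 of 3544 genes (0.480%), 5 higher (0.141%) and 12 lower (0.339%). Gpr84 had 305 CPM in cells with Siglecf against 32.5 CPM in cells without in the untimed Control, and 155 against 32.4 CPM in the 1-week SOX17KO library, a log2 fold change of 2.70 ± 0.52 (SE; adjusted p = 0.0429). Ptgs1 had 242 against 37.2 CPM and 206 against 35.2 CPM, and Creb5, a transcription factor gene, had 1072 against 390 CPM and 490 against 162 CPM. The other 2 that rose were Taf3 and Rnpc3, at mean levels of 47.3 and 49.4 CPM.

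All 21 tested type I interferon genes were below 0 in cells with Siglecf, with a median of -1.38, against 52.4% of all genes below 0. Of these, 2 were called. Slfn4 had 158 against 753 CPM in the untimed Control and 283 against 885 CPM in the 1-week SOX17KO library. Ifitm3 had 284 against 623 CPM and 721 against 1779 CPM. Cxcl10, of the chemokine list, had 31.5 against 284 CPM and 644 against 1979 CPM. Other genes of the Siglecf state list did not move together: 7 of 14 were above 0, against 47.6% of all genes, and 0 were called. The class II genes H2-Aa and H2-Ab1, Cd74 and Lgals1 were also called lower. Of the dendritic cell list that holds the first pair, 153 of 452 UMIs in the untimed Control and 219 of 660 in the 1-week SOX17KO library were in 1 cell, and its part in these calls was not tested. RNA makeup moved as well: 68 of 77 ribosomal protein genes were below 0 in cells with Siglecf, with a median of -0.43, and Rps4x, the mitochondrial mt-Co1 and the ferritin gene Ftl1 were called lower. Their part in the interferon values was not tested either. Cells with Siglecf were somewhat deeper, with a median of 2399 against 2132 UMIs and 2379 against 2063 UMIs, and DESeq2 called 0 genes, with 74 at an unadjusted p under 0.05.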

How the data were processed

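Single-cell RNA was measured in 6 libraries. The deposited values are raw UMI counts per gene and barcode, without normalization, for 32285 genes; the submitters' processing notes name Cell Ranger 6.0.1 and mm10, while the file headers name Cell Ranger 7.0.1. No source used here gives further settings. The total count per library, 18281322 to 52150180, sets the precision.

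Groups came from titles and genotype labels, and pairs from the collection that the titles share. Neutrophils were gated on raw counts, summed per library and tested with edgeR 4.0.16 (TMM scaling, filterByExpr, quasi-likelihood F test, Benjamini-Hochberg over all genes tested, R 4.3.3), checked on simulated data. Genes of the gate were not tested. SE was the log2 fold change over the square root of F. CPM is UMIs per 1000000 UMIs of the summed cells. Groups of under 10 cells in a library were left out of gene tests. Alternatives used RLE scaling, DESeq2 1.42.0 and limma-voom 3.58.1, no expression filter, other gates, fits without the pairing term and left-out libraries. Named genes were members of 31 lists, plus the 10 per direction with the largest fold change among called genes of one direction in every pair and a mean of at least 50 CPM, filled up by lowest p. A few others were named after their values were seen. Thinning drew 1000 UMIs per cell. Of the list genes, 1 was not matched. The members and lists were chosen with earlier results of these data known, so counts over a list describe and do not test.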

Additional observations from a re-analysis of the deposited data

Results flagged for a closer look

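The neutrophil share differed between collections in its direction. The log2 odds, SOX17KO minus Control, were -5.15 in the untimed pair, 1.10 at 1 week and 1.37 at 2 weeks, with 1 library per genotype each, and the difference between collections was not tested.

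In 11 of the genes named for any comparison the ratio of CPM, SOX17KO over Control, lay on opposite sides of 1 at 1 week and 2 weeks, with 1 outside the 95% counting interval each time. Of these, 8 were higher in SOX17KO at 1 week and lower at 2 weeks: Bnip3, Ero1l, Pfkp and Pgk1 of the hypoxia and glycolysis list, Hilpda and Vegfa of the Siglecf state list, and Thbs1 and Ralgapa1. Bnip3 had a ratio of 1.85 at 1 week and 0.310 at 2 weeks. Hilpda had 1.50 and 0.443, and Vegfa had 1.75 and 0.411. Ero1l had 1.28 and 0.584, Pfkp 1.46 and 0.589, and Pgk1 1.28 and 0.616. Thbs1 had 1.31 and 0.654, and Ralgapa1 had 1.43 and 0.661. The other 3 were lower in SOX17KO at 1 week and higher at 2 weeks: Ccl3 had 0.423 and 1.39, and the interleukin-1 antagonist gene Il1rn had 0.614 and 1.32. Cxcl9 had 0.219 and 10.3, and its 2-week ratio rested on 89 SOX17KO and 4 Control UMIs. These differences between collections were not tested, and the interval leaves out the spread between cells and mice.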

How the results depend on the processing

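The mean log2 odds of the neutrophil share ran from -2.02 to 1.24 when 1 collection was left out, turning positive (1.24) without the untimed pair. It stayed between -0.998 and -0.58 under 5 other gates. Genotype calls, 0 in the fit reported, were 14 without the expression filter, 7 with cells holding genes of other classes left out, 4 with any other class left out, 1 with all 6 libraries (Serpinb2) and 1 with up to 1 UMI of Csf1r and C1q genes (Cd74). RLE scaling, DESeq2, limma-voom and the fit with no replicate block of collections gave 0. Time calls, 55 as reported, were 0 with RLE, 18 with DESeq2, 112 with limma-voom, 247 without the filter, 2 with no replicate block of genotypes, 282 with other-class cells left out, 86 with any other class left out, and 313 with up to 1 UMI allowed. Siglecf calls, 17 as reported, were 0 with DESeq2, 7 with limma-voom, 99 without the filter and 18 with RLE. Calls against myeloid cells were 3712 to 5515 throughout, and RLE moved the median of all genes there to -0.41, against -0.26. The settings with all 6 libraries, 1 UMI allowed and any other class left out were chosen after seeing the data.

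Medians under all alternatives ran from -0.59 to -0.32 for type I interferon, -0.72 to -0.46 for interferon-γ and -0.58 to -0.17 for class I genes between genotypes. Of the 47 genes named for genotype, 42 kept their direction. Cxcl9 reversed to 0.46 with DESeq2 and 0.98 with cells holding genes of other classes left out; Il1b to 0.023 without the filter, 0.058 with 1 UMI allowed and 0.0061 with any other class left out; Il1rn to 0.010 and Ero1l to 0.048 with 1 UMI allowed; Pfkp to 0.0090 with limma-voom and 0.019 without the filter. The causes were not tested. Leaving out a collection left genotype and Siglecf fits with no residual degree of freedom, so they gave values and no test. The comparison by Ltf, Camp and Ngp was not run, since at most 5 cells of a library qualified. Depth of 5 to 324 neutrophils a library limits what can be detected.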

Other observations

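Ribosomal protein genes, a group chosen after their values were seen, moved together in neutrophils. They stood higher in SOX17KO than in Control neutrophils in 76 of 78 tested genes, with a median log2 fold change of 0.36 and 0 calls. At 2 weeks against 1 week 77 of 78 stood lower, with a median of -0.98 and 5 calls. Their part of neutrophil UMIs was 4.14% in SOX17KO and 3.89% in Control libraries after 1 week, 2.95% and 1.57% after 2 weeks, and 3.20% in the untimed Control library. In Csf1r-positive myeloid cells of the 6 libraries the share was 11.6% to 13.4%. The lowest share in neutrophils was thus in the library with the lowest median depth, the 2-week Control, at 1484.5 UMIs per cell.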
